A study of Homo sapiens with 11 samples.

Results

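The 10 genes described here belong to the non-canonical WNT and planar polarity pathways, and were measured in mammary xenograft tumours treated with vehicle or with evexomostat. They were chosen by symbol and not by their values: the ligands WNT5A and WNT5B, the receptors ROR1, ROR2, RYK, FZD2 and FZD7, the polarity genes VANGL1 and VANGL2, and the effector DAAM1. These are 10 of the 28152 gene symbols counted, and all 10 were among the 16653 with enough counts to be tested.

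In canonical WNT signalling a secreted WNT protein binds a Frizzled receptor and an LRP co-receptor and stabilises beta-catenin. In the non-canonical branches WNT5A and its paralog WNT5B act through Frizzled together with ROR1, ROR2 or RYK, and the signal passes through Dishevelled to small GTPases and the cytoskeleton, or raises calcium. Planar polarity, the alignment of cells within the plane of a tissue, uses the same Frizzled and Dishevelled proteins with VANGL, PRICKLE and CELSR partners, and in breast tumours these genes have been studied for cell motility. Evexomostat, also named SDX-7320, inhibits methionine aminopeptidase 2, the enzyme METAP2 that removes the first methionine from new proteins, and inhibitors of this enzyme have been linked to the non-canonical branch.

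RNA was sequenced from 11 tumours, 6 from mice given vehicle (mannitol in water) and 5 from mice given evexomostat at 12 mpk, both injected under the skin every 4 days and labelled day 33. All tumours were from 1 cell line labelled BT-474 and HR+/Her2+, a human breast cancer line, placed in the mammary fat pad of female athymic nude mice, which lack a thymus and so most T cells, and allowed to pass 95 mm3 before enrolment. Every mouse, control or treated, carried a 90-day pellet of 0.72 mg estradiol, so no group without added estrogen was present. Libraries carried the numbers 001, 003, 004, 005, 006 and 007 under vehicle and 002, 003, 004, 005 and 007 under evexomostat. The labels do not say that each library came from a separate animal, and p-values measure the spread between these libraries.

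The libraries held 22808033 to 39249329 counts, and the least covered of the 10 genes, WNT5B, had at least 104 counts in each. Vehicle 001 stood apart: its 100 most abundant genes took 23.9% of its counts, where the other libraries had 16.2% to 17.9%. Several results that rest on vehicle 001 are given with and without it. The labelled cell type was checked against its defining markers. ESR1 and PGR, the hormone receptors of the HR+ label, stayed under 1 CPM (read counts scaled to a common total with TMM factors) in every library. ERBB2, the gene of the Her2+ label, stood at 26.7 to 66.5 CPM in vehicle and 50.0 to 60.5 CPM in evexomostat. The 10 luminal and receptor markers summed to 344 to 791 CPM in vehicle and 475 to 601 CPM in evexomostat. KRT8 and KRT18 had the highest means of these 10, while GATA3, EPCAM, FOXA1, KRT19 and CDH1 had group means of 0.428 to 6.79 CPM. The 6 mesenchymal markers summed to 2056 to 4283 CPM and 2087 to 2884 CPM. Neither sum was corrected for transcript length. The tumours are therefore named here by their label only. METAP2 averaged 112 ± 51.5 CPM (SD, n = 6) in vehicle and 109 ± 2.22 CPM (SD, n = 5) in evexomostat. Its vehicle mean includes 216 CPM in vehicle 001, against 84.6 to 104 CPM in the other 5, and edgeR's quasi-likelihood test gave an adjusted p of 0.969 with vehicle 001 and 0.0772 without it.

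None of the 10 genes passed the test between evexomostat and vehicle (edgeR quasi-likelihood, Benjamini-Hochberg adjusted p under 0.05), against 101 of 16653 genes tested, or 0.606%. The receptor FZD7 came nearest, at 25.9 ± 8.56 CPM (SD, n = 6) in vehicle and 13.2 ± 2.18 CPM (SD, n = 5) in evexomostat, and it passed in 4 of the 20 alternative fits. Of the 10, 4 had an unadjusted p under 0.05, WNT5A, ROR1 and FZD7 with lower fitted levels under evexomostat and FZD2 with a higher one, where 13.4% of all genes tested had such a p. Without vehicle 001 such a p was found for 5 of the 10 genes, the same 4 and ROR2, and for 24.4% of all genes tested. Of all genes tested, 0.432% passed with a lower level. In no gene of the 10 were the 2 groups of libraries fully apart, while 2.97% of all genes tested had such groups. The median log2 fold change over the 10 was -0.10, and that of all genes tested was -0.04.

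**Figure D1:**
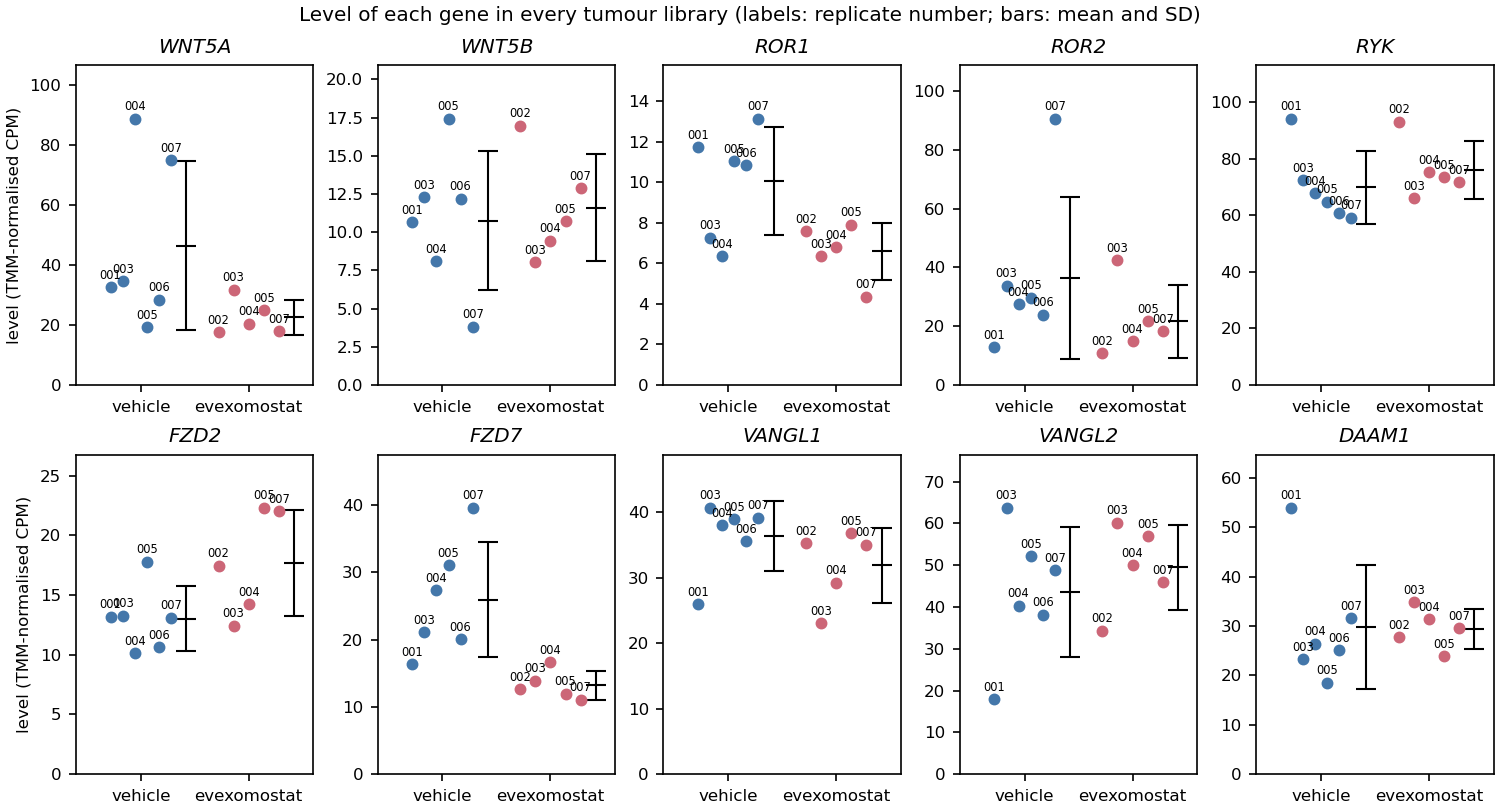
Level of each of the 10 genes in each library, in TMM-normalised CPM on a linear axis. Vehicle and evexomostat libraries are separate points, each labelled with its replicate number, and bars give the mean and SD of each group. FZD7 lies at 16.3 to 39.6 CPM in vehicle and at 11.1 to 16.7 CPM in evexomostat, and the groups overlap in every panel.

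WNT5A and WNT5B are secreted ligands that act mainly in the non-canonical branch. The 2 genes are paralogs, and the bases before their start sites are shown. RefSeq lists 2 starts for each gene, and the counts sum over both. Each line gives the 250 bases before a start, 5′ to 3′ on the gene's strand, in build GRCh38.p14, and capitals mark matches to a GC box, a TATA box or an AP-1 site on either strand. No match overlapped another.
WNT5A start 1, chr3:55487307-55487556, minus strand: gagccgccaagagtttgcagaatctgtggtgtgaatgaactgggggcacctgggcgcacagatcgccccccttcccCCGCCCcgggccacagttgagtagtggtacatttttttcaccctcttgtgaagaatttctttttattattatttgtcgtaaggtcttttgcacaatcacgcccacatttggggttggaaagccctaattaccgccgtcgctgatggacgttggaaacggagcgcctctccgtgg
WNT5A start 2, chr3:55481399-55481648, minus strand: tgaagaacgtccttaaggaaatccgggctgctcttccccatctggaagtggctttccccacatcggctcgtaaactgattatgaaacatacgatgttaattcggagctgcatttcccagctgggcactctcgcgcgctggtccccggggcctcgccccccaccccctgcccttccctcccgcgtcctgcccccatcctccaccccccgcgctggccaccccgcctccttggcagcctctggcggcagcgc
WNT5B start 1, chr12:1616806-1617055, plus strand: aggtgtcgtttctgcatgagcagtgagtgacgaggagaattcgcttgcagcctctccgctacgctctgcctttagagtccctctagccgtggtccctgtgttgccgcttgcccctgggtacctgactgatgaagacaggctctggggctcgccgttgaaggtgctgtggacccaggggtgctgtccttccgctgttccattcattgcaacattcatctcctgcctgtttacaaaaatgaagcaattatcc
WNT5B start 2, chr12:1628981-1629230, plus strand: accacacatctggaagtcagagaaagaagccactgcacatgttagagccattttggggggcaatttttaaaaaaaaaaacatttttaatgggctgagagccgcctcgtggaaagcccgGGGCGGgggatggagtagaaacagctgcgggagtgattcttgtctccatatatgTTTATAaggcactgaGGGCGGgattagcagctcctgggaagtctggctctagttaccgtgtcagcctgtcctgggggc
A GC box, spelled GGGCGG, was found once before the first WNT5A start and at 2 places before the second WNT5B start, and 42.6% of the 35116 RefSeq windows of this length held one. The second WNT5B window held the only TATA box of the 4, searched as TATAAA, a motif that 10.7% of all windows of this length held. An AP-1 site, searched as TGANTCA, was in none of the 4 windows and in 6.57% of all windows. Promoter windows were matched for 8 of the 10 genes.

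WNT5A stood at 32.5, 34.6, 88.8, 19.4, 28.4 and 75.0 CPM in vehicle 001, 003, 004, 005, 006 and 007. It stood at 17.6, 31.8, 20.4, 24.9 and 17.9 CPM in evexomostat 002, 003, 004, 005 and 007. Vehicle 004 and 007 were far above the other vehicle libraries, vehicle 005 and 006 lay inside the evexomostat range, and 2 evexomostat libraries lay below all vehicle libraries. The means were 46.5 ± 28.3 CPM (SD, n = 6) and 22.5 ± 5.93 CPM (SD, n = 5), and the fitted log2 fold change was -1.05 ± 0.36 (SE), with an edgeR unadjusted p of 0.0126 and an adjusted p of 0.222. Without vehicle 004 the log2 fold change was -0.75 and without vehicle 007 -0.86. WNT5A did not pass without vehicle 001 (edgeR adjusted p = 0.0953), in DESeq2 (0.0784) or in limma-voom with quality weights (0.0918).

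WNT5B differed from its paralog in where its extremes lay. It stood at 10.7, 12.3, 8.10, 17.4, 12.2 and 3.82 CPM in vehicle 001, 003, 004, 005, 006 and 007, and at 17.0, 8.02, 9.46, 10.7 and 12.9 CPM in evexomostat 002, 003, 004, 005 and 007. Vehicle 005, lowest of its group for WNT5A, was highest for WNT5B, vehicle 007, which was high for WNT5A, was lowest for WNT5B, and evexomostat 002 and 003 exchanged ends in the same way. The group means were 10.8 ± 4.57 CPM (SD, n = 6) and 11.6 ± 3.49 CPM (SD, n = 5), with a log2 fold change of 0.11 ± 0.32 (SE) and an edgeR adjusted p of 0.925. As a ratio of CPM, WNT5A to WNT5B ran from 1.11 to 19.6 in vehicle (median 2.93) and from 1.04 to 3.96 in evexomostat (median 2.16), and the groups overlapped. Such ratios are not corrected for transcript length, so they compare libraries and not the levels of the 2 genes. FBXL14, at 140 to 993 counts, overlaps WNT5B on the opposite strand, and the use of strand in the counting is not given in the sources used here, so reads of the 2 genes may have been mixed. The same holds for WNT5A and its antisense gene WNT5A-AS1, which was not analysed here.

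Among the 19 WNT genes, compared per kilobase of the longest coding transcript, WNT5A made up a median of 26.6% of the summed level in vehicle, with a range of 14.0% to 54.5%, and stood first. WNT5B was second in vehicle with 23.7%. In evexomostat WNT5B came first with 22.1% and WNT5A second with 17.5%, which is a description of overlapping ranges. Of the other ligands, WNT3 averaged 10.6 ± 2.97 and 10.96 ± 1.65 CPM (log2 fold change 0.04, edgeR adjusted p = 0.958), and WNT6, which had the smallest p among them, averaged 0.986 ± 0.331 and 1.5 ± 0.707 CPM (log2 fold change 0.61, edgeR adjusted p = 0.440). None of the 12 WNT genes tested passed. WLS, the carrier that takes WNT proteins to the cell surface, stood at 78.3 to 96.9 CPM in vehicle and 89.9 to 139 CPM in evexomostat, means 86.2 ± 7.45 and 121 ± 19.8 CPM. Its log2 fold change was 0.49 ± 0.13 (SE), with an edgeR adjusted p of 0.112, and 0.0425 without vehicle 001.

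The genes most like each ligand over the 11 libraries were found by the mean absolute difference of log2 CPM after centring. They were picked as the smallest differences among all genes tested, so values below the median follow from the choice. For WNT5A they were SEMA6D at 0.160, SIX2 at 0.271 and SERPINA3 at 0.291, where the median over all genes tested was 0.676. SIX2 shared the 2 high vehicle libraries, with 22.6 CPM in vehicle 004 and 32.0 CPM in vehicle 007, against 4.23 to 7.90 CPM in the other 4. For WNT5B they were CYS1 at 0.172, ZNF215 at 0.182 and CD8A at 0.182, against a median of 0.518, and CD8A averaged only 0.416 CPM in vehicle.

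ROR1 and ROR2 are receptor tyrosine kinase-like co-receptors of WNT5A. ROR1 stood at 11.7, 7.28, 6.36, 11.04, 10.9 and 13.2 CPM in vehicle 001, 003, 004, 005, 006 and 007, and at 7.60, 6.36, 6.81, 7.91 and 4.35 CPM in evexomostat 002, 003, 004, 005 and 007. Vehicle 003 and 004 lay within the evexomostat range, and the other 4 vehicle libraries lay above all evexomostat libraries. The means were 10.1 ± 2.66 CPM (SD, n = 6) and 6.61 ± 1.40 CPM (SD, n = 5), and the fitted log2 fold change was -0.61 ± 0.23 (SE), with an edgeR unadjusted p of 0.0188 and an adjusted p of 0.258. ROR1-AS1, its antisense gene, had 0 to 27 counts.

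ROR2 varied more than any other gene of the 10 relative to its mean, from 12.8 CPM in vehicle 001 to 90.7 CPM in vehicle 007. Vehicle 003, 004, 005 and 006 stood at 33.8, 27.4, 29.7 and 23.9 CPM, and evexomostat 002, 003, 004, 005 and 007 at 10.8, 42.4, 14.9, 21.7 and 18.2 CPM. The means of 36.4 ± 27.5 CPM (SD, n = 6) and 21.6 ± 12.3 CPM (SD, n = 5) gave a log2 fold change of -0.75 ± 0.45 (SE) and an edgeR adjusted p of 0.517. That value rests on single libraries: it was -0.24 without vehicle 007, -0.92 without vehicle 001 and -1.15 without evexomostat 003. ROR2 to ROR1 ratios of 1.09 to 6.89 in vehicle and 1.42 to 6.68 in evexomostat covered nearly the same range. The lowest vehicle ratio was 2.20 without vehicle 001.

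RYK, a WNT receptor with an inactive kinase domain, was the most abundant of the 10 per kilobase. Its libraries stood at 59.1 to 94.2 CPM in vehicle (median 66.2) and at 65.9 to 93.0 CPM in evexomostat (median 73.5). The high ends were vehicle 001 and evexomostat 002. The log2 fold change was 0.12 ± 0.14 (SE), with an edgeR adjusted p of 0.785, and 0.23 without vehicle 001 (edgeR adjusted p = 0.205). MCAM, another WNT5A receptor, and PTK7, a polarity co-receptor, gave log2 fold changes of 0.33 and -0.06 and did not pass (edgeR adjusted p = 0.593 and 0.932).

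**Figure D2:**
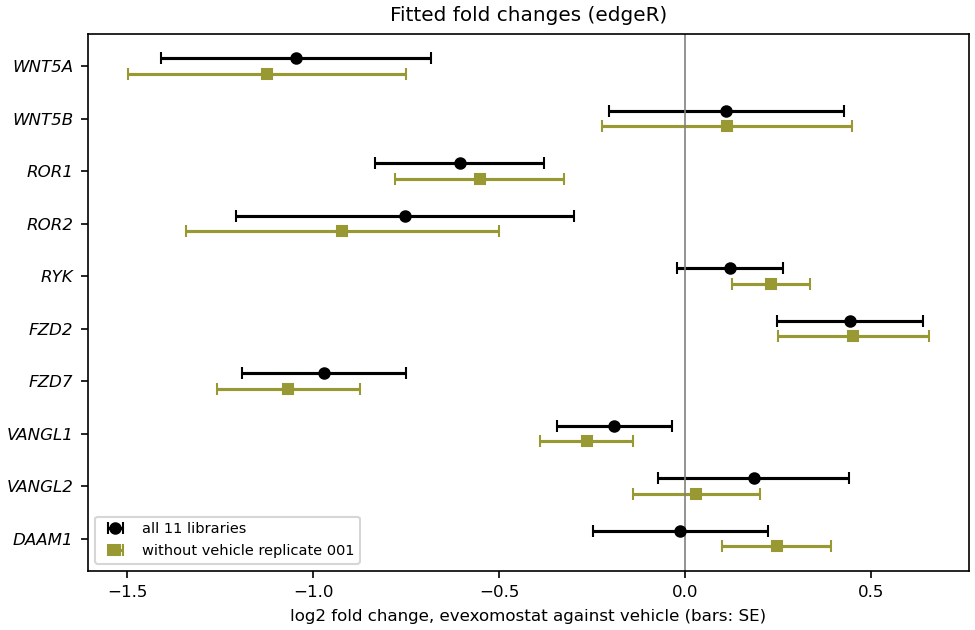
Log2 fold change of the 10 genes, evexomostat minus vehicle, with its standard error, with all 11 libraries and without vehicle 001. FZD7 is at -0.97 with all libraries and -1.07 without vehicle 001, and DAAM1 moves from -0.01 to 0.25.

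FZD2 and FZD7 are closely related Frizzled receptors that bind WNT5A as well as canonical WNT proteins. FZD7 stood at 16.3, 21.1, 27.3, 31.1, 20.04 and 39.6 CPM in vehicle 001, 003, 004, 005, 006 and 007, and at 12.6, 13.9, 16.7, 12.0 and 11.1 CPM in evexomostat 002, 003, 004, 005 and 007. The groups overlapped only through vehicle 001 and evexomostat 004, with 5 of 6 vehicle libraries above all evexomostat libraries. The log2 fold change was -0.97 ± 0.22 (SE), with an edgeR unadjusted p of 6.75e-04 and an adjusted p of 0.0690. FZD7 passed without vehicle 001 (log2 fold change -1.07, edgeR adjusted p = 0.0127), where 5.22% of genes passed. It also passed in DESeq2 (adjusted p = 0.00253), which called 3.9% of genes, in limma-voom with quality weights (0.00623, 6.36% of genes) and in edgeR on the 8 libraries whose numbers occur in both groups (0.0193, 4.42% of genes). FZD7 did not pass in edgeR with a replicate block on those 8 libraries (adjusted p = 0.0792). Nor did it pass without any 1 evexomostat library (edgeR adjusted p of 0.119 to 0.212). Over all alternatives the log2 fold change of FZD7 stayed between -1.16 and -0.78. On counts simulated with the spreads that edgeR estimated, 22.8% of the DESeq2 calls were false, against 7.48% of the edgeR calls. There edgeR found 51.5% of the changes of log2 size 1 and DESeq2 67.7%. No simulated library was made to stand apart as vehicle 001 does, so these shares may not hold for the real libraries.

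FZD2 stood at 13.2, 13.3, 10.1, 17.8, 10.6 and 13.1 CPM in vehicle 001, 003, 004, 005, 006 and 007, and at 17.5, 12.4, 14.2, 22.3 and 22.02 CPM in evexomostat 002, 003, 004, 005 and 007. Vehicle 005 and evexomostat 003 made the groups overlap. The means were 13.0 ± 2.72 CPM (SD, n = 6) and 17.7 ± 4.46 CPM (SD, n = 5), and the fitted log2 fold change was 0.44 ± 0.20 (SE), with an edgeR unadjusted p of 0.0419 and an adjusted p of 0.345. FZD2 did not pass in any alternative.

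The FZD7 to FZD2 ratio set the 2 receptors side by side within each library. It was 1.24, 1.59, 2.69, 1.75, 1.89 and 3.02 in vehicle 001, 003, 004, 005, 006 and 007, and 0.721, 1.12, 1.17, 0.536 and 0.503 in evexomostat 002, 003, 004, 005 and 007. Per kilobase of the longest coding transcript, the level of FZD7 was above that of FZD2 in 3 of 6 vehicle libraries. The ratio of CPM did not overlap between the groups, with vehicle 001 the nearest to the evexomostat libraries. The mean log2 ratio was lower by 1.35 in evexomostat, from 0.95 ± 0.48 (SD, n = 6) to -0.40 ± 0.57 (SD, n = 5). In all, 4 ratios of family members were formed after values had been seen, so this is a description with no test.

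**Figure D3:**
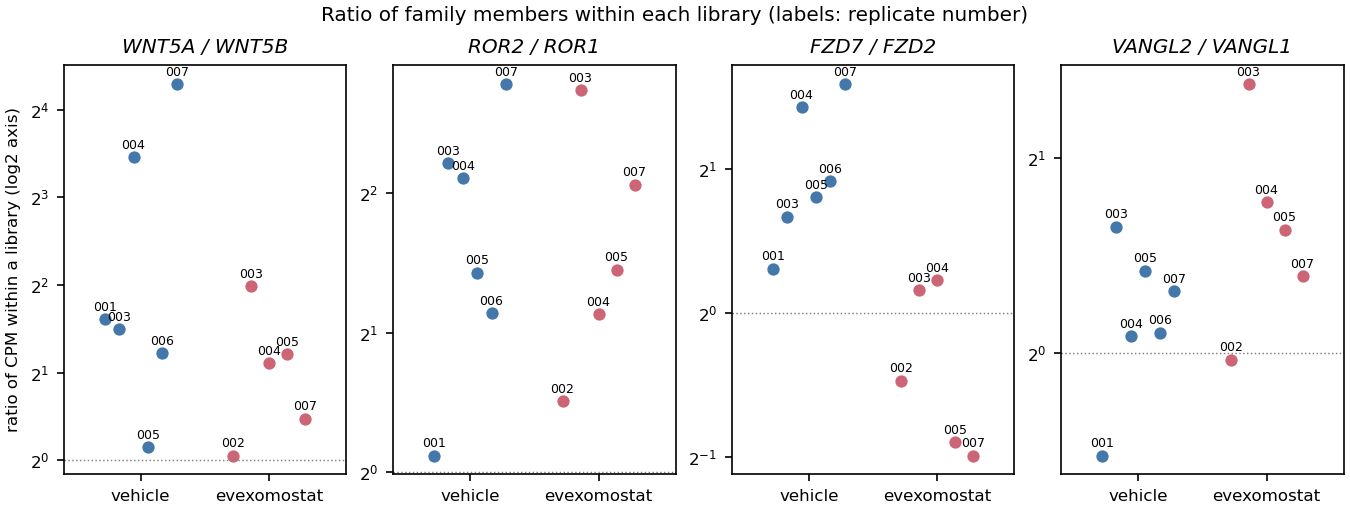
Ratio of CPM within each library for 4 pairs of family members (WNT5A to WNT5B, ROR2 to ROR1, FZD7 to FZD2, VANGL2 to VANGL1) on a logarithmic axis, by group. The FZD7 to FZD2 ratio is 1.24 to 3.02 in vehicle and 0.503 to 1.17 in evexomostat, and the other 3 ratios overlap between groups.

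Among the 10 Frizzled genes per kilobase, FZD6 and FZD1 came before FZD7 (median 12.5% of the summed level) and FZD2 (12.0%) in vehicle. In evexomostat FZD2 was at place 2 (22.4%) and FZD7 at place 5 (9.50%). FZD1, the other Frizzled gene with a small p, averaged 89.0 ± 21.5 CPM (SD, n = 6) and 46.3 ± 13.1 CPM (SD, n = 5), and the fitted log2 fold change was -0.94 ± 0.22 (SE) with an edgeR adjusted p of 0.0706. Like FZD7 it passed without vehicle 001 (0.0176) and in DESeq2 (0.00338). In the authors' deposited table FZD1 has an FDR of 0.0443 and FZD7 one of 0.0580. None of the 9 Frizzled genes tested passed with all libraries, 2 had an unadjusted p under 0.05 with a lower level and 1 with a higher level, and their median log2 fold change was -0.25.

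VANGL1 and VANGL2 are membrane proteins of the planar polarity core. VANGL1 stood at 25.9 to 40.7 CPM in vehicle (median 38.5) and 23.1 to 36.8 CPM in evexomostat (median 35.0), with vehicle 001 and evexomostat 003 low. VANGL2 stood at 18.0 to 63.8 CPM in vehicle (median 44.6) and 34.4 to 60.2 CPM in evexomostat (median 50.0), again with vehicle 001 lowest. Their log2 fold changes were -0.19 ± 0.15 and 0.18 ± 0.26 (SE), with edgeR adjusted p of 0.659 and 0.827. Without vehicle 001 the VANGL2 value was 0.03. VANGL2 to VANGL1 ratios of 0.693 to 1.57 in vehicle and 0.975 to 2.61 in evexomostat overlapped. They still overlapped without vehicle 001, where the lowest vehicle ratio was 1.06.

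Of the other core polarity genes, SCRIB, a scaffold protein that binds VANGL, stood at 158 to 277 CPM in vehicle and 310 to 364 CPM in evexomostat with no overlap. Its log2 fold change was 0.42 ± 0.15 (SE) and its edgeR adjusted p 0.232. Without vehicle 001, its lowest library, these were 0.33 and 0.0515. PRICKLE2 averaged 23.3 ± 6.75 and 14.99 ± 3.09 CPM (log2 fold change -0.64, edgeR adjusted p = 0.228). None of the 14 core polarity genes tested passed.

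DAAM1, a formin that links Dishevelled to RHOA and actin, stood at 53.9, 23.2, 26.4, 18.5, 25.1 and 31.6 CPM in vehicle 001, 003, 004, 005, 006 and 007. It stood at 27.8, 34.8, 31.3, 23.9 and 29.5 CPM in evexomostat 002, 003, 004, 005 and 007. Vehicle 001 was above every other library of either group. The log2 fold change was -0.01 ± 0.23 (SE, edgeR adjusted p = 0.990) with that library and 0.25 (adjusted p = 0.325) without it, and the fitted sign also turned without vehicle 007, evexomostat 002 or evexomostat 005. Of the 12 polarity effectors tested, DAAM1 included, none passed. FUZ, which acts with planar polarity in cilium formation, stood at 4.30 to 6.19 CPM in vehicle and 7.65 to 9.32 CPM in evexomostat with no overlap, a log2 fold change of 0.69 ± 0.15 (SE) and an edgeR adjusted p of 0.0665 (0.0227 without vehicle 001). RAC1, a small GTPase of the pathway, had a log2 fold change of -0.16 (edgeR adjusted p = 0.754), and of 0.0019 without vehicle 001.

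Levels of different genes were set beside each other per kilobase of the longest coding transcript. In vehicle the medians ran from RYK at 22.5 through VANGL2 at 8.35, ROR2 at 6.98, FZD7 at 6.28, FZD2 at 6.23, WNT5A at 5.44, WNT5B at 4.97, DAAM1 at 4.44 and VANGL1 at 4.43 to ROR1 at 1.88 CPM per kilobase. In evexomostat they ran from RYK at 25.0 through VANGL2 at 9.36, FZD2 at 8.27, DAAM1 at 5.08, WNT5B at 4.66, ROR2 at 4.44, VANGL1 at 4.03, WNT5A at 3.31 and FZD7 at 3.27 to ROR1 at 1.17 CPM per kilobase. RYK at the top and ROR1 at the bottom were apart from their neighbours in both groups, and the ranges of all other neighbours overlapped. The transcript used matters between these ends.

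**Figure D4:**
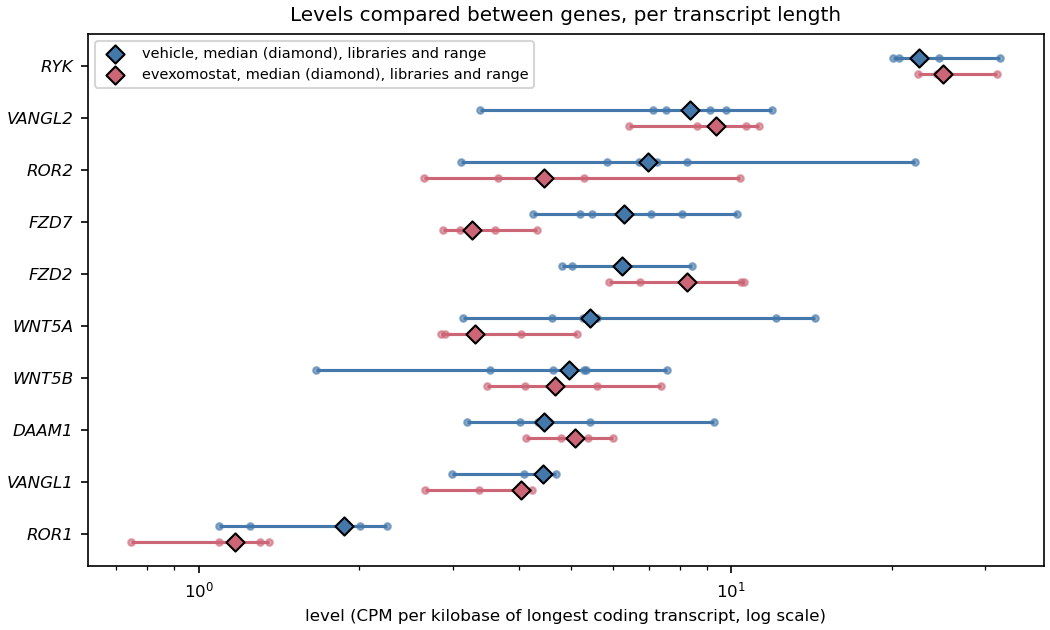
Level of each of the 10 genes in CPM per kilobase of its longest coding transcript, on a logarithmic axis, per library and group, in the order of the vehicle medians. RYK is highest, with medians of 22.5 in vehicle and 25.0 in evexomostat, and ROR1 lowest, with 1.88 and 1.17.

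Vehicle 001 was the highest or lowest library of its group in 6 of the 10 genes, vehicle 007 in 5 and evexomostat 003 in 8, while vehicle 006 was so in none. In these bulk libraries fewer cells of a type and less RNA per cell cannot be told apart. WNT5A and the ROR genes are known from fibroblasts as well as tumour cells, so host markers were read as counted on the human annotation. The 9 fibroblast markers summed to 426 to 2078 CPM in vehicle, highest in vehicle 004, and to 521 to 1103 CPM in evexomostat. In vehicle 004 WNT5A was highest of its group at 88.8 CPM, ROR1 was lowest at 6.36 CPM, and ROR2 stood at 27.4 CPM. The largest of the 9 fibroblast markers was COL3A1, at 186 to 1751 CPM in vehicle and 238 to 708 CPM in evexomostat. Over both groups COL1A1, COL1A2, PDGFRB and FAP stood between 6.28 and 245 CPM. PDGFRA and THY1 stayed at or below 5.79 CPM, DCN at 0 to 1.36 CPM and LUM at 0 to 3.84 CPM. The 6 endothelial markers summed to 10.4 to 22.4 CPM in vehicle and 10.05 to 14.2 CPM in evexomostat with CDH5, TEK and TIE1 under 1 CPM, and the 6 macrophage markers to 36.0 to 66.8 and 36.2 to 53.6 CPM. The 10 skeletal muscle markers summed to 2.00 to 20.7 CPM in vehicle and 2.11 to 463 CPM in evexomostat, highest in evexomostat 005. ADIPOQ was at 0 in every library, no gene of any of these lists passed, and the part of other cells in the values of the 10 genes was not tested.

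The wider pathway was read from a list of 104 WNT genes, of which 91 were tested. One passed: LGR4, a receptor for R-spondins that keeps Frizzled at the cell surface, fell from 15.5 ± 4.58 CPM (SD, n = 6) to 7.04 ± 1.17 CPM (SD, n = 5), and the fitted log2 fold change was -1.14 ± 0.21 (SE) with an edgeR adjusted p of 0.0322. Its libraries stood at 11.2 to 24.3 CPM in vehicle and at 5.75 to 8.74 CPM in evexomostat with no overlap, and it passed in 10 of the 20 alternatives. The call was lost without vehicle 003 or 004 and without any 1 evexomostat library, with edgeR adjusted p of 0.0612 to 0.125 and log2 fold changes of -1.23 to -1.07. In the authors' deposited table its FDR is 0.0123. Another 16 had an unadjusted p under 0.05, and the 17 were 7 with higher and 10 with lower fitted levels. Over all 16653 genes tested, 0.606% passed and 13.4% had such an unadjusted p, 802 with higher and 1423 with lower fitted levels. The median log2 fold change of the 91 was -0.07, and that of all genes tested was -0.04.

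Other roles hold genes that act after or around the receptors. Among 15 calcium branch genes none passed. The kinase subunit gene CAMK2D averaged 129 ± 26.6 and 98.2 ± 8.55 CPM with no overlap (log2 fold change -0.40, edgeR adjusted p = 0.244), and the phospholipase gene PLCB4 had a log2 fold change of -0.44 (edgeR adjusted p = 0.162). Among the receptor turnover genes SMURF2, a ubiquitin ligase that acts on PRICKLE, averaged 46.1 ± 6.51 and 72.1 ± 16.7 CPM with no overlap (log2 fold change 0.64, edgeR adjusted p = 0.0866), and SMURF1 had a log2 fold change of -0.13. LRP6, the canonical co-receptor, stood at -0.18 (edgeR adjusted p = 0.645).

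Without vehicle 001, 6 of the pathway genes passed: WLS, FUZ and SMURF2 were higher in evexomostat and FZD1, FZD7 and LGR4 lower. The same 6 passed in DESeq2, together with PLCB4. With quality weights SCRIB passed as well, which made 8. FZD7 was the only one of the 10 genes among them. Over all genes tested, 5.22% passed without vehicle 001, 3.9% in DESeq2 and 6.36% with quality weights.

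**Figure D5:**
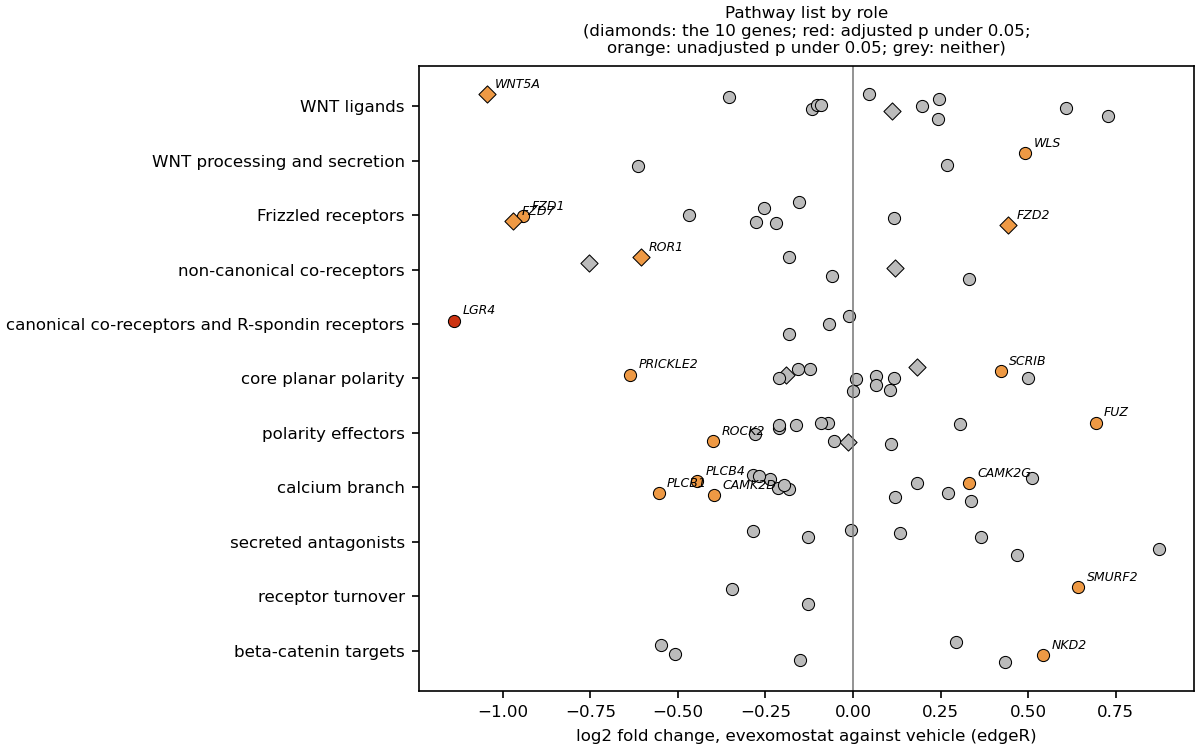
Log2 fold change, evexomostat minus vehicle, of the 91 tested pathway genes by role, each gene drawn once under its first role. LGR4 at -1.14 is the only gene with an edgeR adjusted p under 0.05, and the median of the 91 is -0.07.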

How the data were processed

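RNA from 11 tumours labelled BT-474 was sequenced as paired-end reads, per the labels. The submitters' processing notes name bcl2fastq 2.17, STAR 2.7.5c, featureCounts, Subread and edgeR, with builds GRCh37 and hg19. How reads from mouse cells were treated, and whether counting used strand, is not given in the sources used here. The authors deposited whole-number read counts per gene symbol, the same values as RPM (each count over its column total), and a comparison table with log2 fold changes, p-values and FDR.

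Symbols were kept with filterByExpr (minimum count 10, minimum total count 15), which left 16653 of 28152. Counts were scaled with TMM factors and tested with edgeR 4.0.16 (quasi-likelihood F-test, R 4.3.3), without covariates, two-sided, with Benjamini-Hochberg adjustment over all tested genes at 0.05. Each fold change has an SE computed from its F value. TMM-normalised CPM served for levels, with SD over libraries. Library totals were 22808033 to 39249329. How much of the spread between libraries is counting error was not computed, and it weighs most in genes of few counts, such as CD8A at 4 to 25. Transcript lengths are from GENCODE 29, and promoter windows from RefSeq, both on another build than the counts, so gene coordinates are given only for those windows.

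The 10 genes and the lists were chosen with earlier results of these data known. Named beyond the 10 are, per role, genes that passed, the one with the smallest p and the one with the highest mean CPM, the 3 most like each WNT5 ligand, and METAP2. FZD6 and the genes that overlap WNT5A, WNT5B and ROR1 were named after values were seen. Alternatives were scaling by RLE or by the upper quartile, no count filter, DESeq2 1.42.0, quality weights in limma-voom (limma 3.58.1), limma-trend with pseudocounts of 1 and 0.1 RPM, a replicate block, and leaving out each library. The fits were tested on counts simulated with the spreads that edgeR estimated, with no library made to stand apart. There the share of false calls was 7.48% for edgeR, 22.8% for DESeq2 and 7.53% for limma-voom with quality weights.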

Additional observations from a re-analysis of the deposited data

Results flagged for a closer look

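In each of the 10 genes and each group, the highest and lowest libraries were compared with their nearest neighbour relative to the range of the group, 20 groups in all. Chance marks about 1 in 20 groups, and 3 were marked. ROR2 in vehicle 007, at 90.7 CPM, lay far above the other vehicle libraries at 12.8 to 33.8 CPM. VANGL1 in vehicle 001, at 25.9 CPM, lay below the others at 35.5 to 40.7 CPM. DAAM1 in vehicle 001, at 53.9 CPM, lay above the others at 18.5 to 31.6 CPM.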

How the results depend on the processing

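Over all genes, 101 passed (29 higher, 72 lower), against 649 in DESeq2 (200 and 449), 1059 with quality weights (384 and 675) and 1 to 865 when single libraries were left out: 865 without vehicle 001, 52, 46 and 56 without vehicle 003, 004 and 007, and 2, 46, 28, 1 and 3 without evexomostat 002, 003, 004, 005 and 007. All 101 were among the calls of DESeq2, of the quality weights and of the fit without vehicle 001. Counts under upper quartile scaling (70, 28 higher), log2(RPM + 1) (74, 43 higher) and log2(RPM + 0.1) (68, 38 higher) were nearer, though the share higher moved, and the RPM scales shifted the median of all genes by 0.11 and 0.14. Of the 10 genes, 1 passed (FZD7) in DESeq2, with quality weights and without vehicle 001, and 0 to 1 when single libraries were left out. Of the pathway genes, 7 passed in DESeq2, 8 with quality weights, 0 on either RPM scale (16 at an unadjusted p under 0.05 in both limma-trend fits) and 0 to 6 when single libraries were left out.

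Replicate numbers occur in both groups for 003, 004, 005 and 007. The same-numbered libraries deviated with correlations of -0.27, 0.07, 0.05 and -0.10, and 1 of 8 libraries correlated best with its own number, so the numbers were not taken as pairs. With the replicate block on these 8 libraries edgeR called 107 genes (24 higher, 83 lower), 38 of them among the 101, against 733 (225 and 508) without the block. In that block fit 0 pathway genes passed (20 at an unadjusted p under 0.05), against 8 without it, and 0 against 1 of the 10 genes.

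Fitted values near 0 turned sign. On the log2 scale DAAM1 was 0.029 with upper quartile scaling, 0.23 with quality weights, 0.15 and 0.16 on the RPM scales, 0.27 with the block and 0.26 without the block on those libraries, and -0.11 to 0.25 leaving out single libraries. METAP2 was 0.24 with quality weights, 0.15 on both RPM scales, 0.23 with the block, 0.22 without it, and -0.11 to 0.26 leaving out libraries. CYS1 was 0.075 and 0.19 on the RPM scales, 0.074 with the block, and -0.23 to 0.10. DKK1 was 0.52 with the block and 0.45 without it. WNT5B was -0.028 on those libraries without the block, and -0.067 to 0.31. WNT3 was -0.059 with quality weights, and -0.056 to 0.19. PTK7 was 0.082 and 0.084 on the RPM scales, and -0.18 to 0.044. SMURF1 was 0.016 and 0.018 on them. RAC1 ranged from -0.24 to 0.0019 and the log2 ROR2 to ROR1 difference from -0.36 to 0.21, an alternative added after seeing the data. The cause was not tested. With the median transcript length, 2 of 10 genes kept their place in the vehicle order. Depth limits little here, since the smallest count among the 10 genes was 104.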

Other observations

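Secreted antagonists of WNT signalling and beta-catenin targets were read from the same fit. None of the 7 antagonists tested passed in edgeR and none had an unadjusted p under 0.05. DKK1, which blocks LRP6 and had the highest mean CPM among them, ranged from 15.1 to 92.3 CPM in vehicle and from 21.7 to 63.4 CPM in evexomostat. DKK3 had the smallest p among them, at 2.60 ± 1.42 CPM (SD, n = 6) and 4.77 ± 2.51 CPM (SD, n = 5), with a log2 fold change of 0.87 ± 0.50 (SE) and an edgeR adjusted p of 0.483.

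Of the 8 beta-catenin targets tested none passed, and 1 had an unadjusted p under 0.05. That gene was NKD2, an inhibitor of Dishevelled, at 11.7 ± 3.64 CPM (SD, n = 6) and 17.0 ± 2.49 CPM (SD, n = 5), and the log2 fold change was 0.54 ± 0.20 (SE) with an edgeR adjusted p of 0.257. ZNRF3, a ubiquitin ligase that removes Frizzled from the membrane, had a log2 fold change of -0.35 (edgeR adjusted p = 0.448).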
